A study of Homo sapiens with 6 samples.

Results

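The 26 host genes described here are the rows of the count table named SNHG with a number, together with GAS5, ZFAS1, DANCR, EPB41L4A-AS1 and TAF1D, out of 26485 rows. They are hosts of small nucleolar RNAs. They were measured by RNA sequencing of poly(A) RNA in H9 cells, an established human T lymphoma line that the labels call cutaneous. Treated cells received PA4, a compound known here by its code name, at 1 µM for 24 h (3 libraries), and control cells received the vehicle DMSO (3 libraries). Both groups were grown in RPMI medium with serum, come from 1 cell line, and are not stated to be separate cultures. The series asked what accompanies the cell death that its submitters ascribe to PA4.

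Small nucleolar RNAs (snoRNAs) are guide RNAs of the nucleolus. Box C/D snoRNAs direct methylation and box H/ACA snoRNAs direct pseudouridylation of ribosomal RNA, while their Cajal body relatives, the scaRNAs, act on spliceosomal RNAs. In human cells most of them are cut from introns of host genes. A snoRNA host gene (SNHG) is a host whose spliced transcript often encodes no known protein, and many such transcripts are exported and removed by nonsense-mediated decay when ribosomes read them. Several hosts begin with a terminal oligopyrimidine (TOP) tract, the 5′ feature through which growth signals control the translation of ribosomal protein messages. The GAS5 transcript was named for its build-up in growth-arrested cells.

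Library totals were 18282212 to 22875191 counts, and the 26 hosts held 29039 to 35526 counts per library. T cell markers were present, with 16054 to 20752 summed counts over 9 genes, and all 5 natural killer markers summed to at most 4 counts. The B cell genes CD79A and CD79B had 151 to 260 counts, with PAX5 at 2 or fewer. The 5 epithelial markers summed to 140 to 142 CPM in PA4 libraries and 133 to 137 CPM in control libraries (CPM, counts scaled to an equal library size), nearly all of it EPCAM, with KRT14 at 0. EPCAM was not called (edgeR adjusted p 0.933), and its part in the results below was not tested. Control replicate 3 stood apart from all other libraries in 3 noncoding rows examined, with 450 counts of RN7SL2 where the others had 23 to 37, 136 of RN7SL1 where the others had 14 to 19, and 74 counts of RNA28S5 where the others had 310 to 563. In bulk RNA, fewer cells of a type and less RNA per cell cannot be told apart.

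The 5′ ends of the abundant hosts are shown because TOP tracts sit there. The RefSeq sequences used here (GRCh38.p14) cover an annotated start of 21 of the 26 genes. For ZFAS1 and SNHG12 the start used lies inside the gene's RefSeq span, which begins further upstream. Each line gives 70 bases, 20 before the annotated start and 50 from it, and capitals mark the run of C and T that holds the annotated first base. The first 6 lines are the hosts with the highest counts per kilobase among those with a sequence to print. GAS5 and DANCR have no capitals because their annotated first base is neither C nor T. SNHG4 and SNHG12 were added for their long runs, after the runs were seen. The longest run of the 21, 22 bases, is in SNHG18, and TAF1D has one as long as that of SNHG12 (12 bases). These are not shown.
SNHG5 (chr6:85678684-85678753, minus strand): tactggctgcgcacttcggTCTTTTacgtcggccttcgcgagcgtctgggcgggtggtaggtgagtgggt
GAS5 (chr1:173868996-173869065, minus strand): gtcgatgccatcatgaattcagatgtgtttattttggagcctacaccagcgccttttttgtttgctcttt
SNHG1 (chr11:62855836-62855905, minus strand): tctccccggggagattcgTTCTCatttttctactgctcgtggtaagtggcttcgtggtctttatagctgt
SNHG8 (chr4:118278742-118278811, plus strand): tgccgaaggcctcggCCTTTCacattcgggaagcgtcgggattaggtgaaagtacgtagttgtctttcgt
DANCR (chr4:52712374-52712443, plus strand): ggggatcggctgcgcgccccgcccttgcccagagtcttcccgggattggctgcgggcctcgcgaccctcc
ZFAS1 (chr20:49278622-49278691, plus strand): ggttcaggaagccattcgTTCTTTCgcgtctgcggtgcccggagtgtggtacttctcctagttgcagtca
SNHG4 (chr5:139274081-139274150, plus strand): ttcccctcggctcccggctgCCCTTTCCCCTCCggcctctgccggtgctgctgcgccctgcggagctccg
SNHG12 (chr1:28581824-28581893, minus strand): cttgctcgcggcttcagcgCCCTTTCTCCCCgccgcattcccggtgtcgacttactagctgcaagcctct

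A run of at least 5 bases, each C or T, that opened with a C at the annotated start was found on the gene's strand in 7 of these 21 hosts (33.3%). The 7 were SNHG4, SNHG5, SNHG12, SNHG18, SNHG19, TAF1D and ZFAS1. The same was found in 48 of 85 RPL and RPS genes, which encode ribosomal proteins (56.5%), and in 1429 of 35116 RefSeq starts (4.07%). SNHG1, SNHG8 and SNHG7 have a C at the annotated start but a shorter run from it, and GAS5 has an A there. These are RefSeq starts. The GENCODE annotation starts GAS5 further downstream, at 173868882 rather than 173869045, so the GAS5 bases printed above lie outside the GENCODE gene. Other hosts, among them SNHG3 and TAF1D, also start elsewhere in GENCODE. The GENCODE starts were not searched for a run, so whether GAS5 has one there was not tested. With the run allowed to open within 5 bases of the annotated start, it was found in 12 of 21 hosts (57.1%), 69.4% of the RPL and RPS genes and 21.1% of all RefSeq starts. Annotated starts can differ from those used in H9 cells, so a missing run says only that these letters are not at this position.

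The hosts spanned a wide range of levels. SNHG5, a C/D host of the SNORD50 genes, was the most abundant per kilobase of gene model, with 376 CPM per kilobase averaged over the 6 libraries, above 99.0% of tested genes. GAS5 followed at 261, SNHG1 at 219 and SNHG6 at 192 CPM per kilobase, and the library ranges of these 4 hosts did not overlap one another. SNHG15 at 111, SNHG8 at 103, DANCR at 97.7, ZFAS1 at 91.6 and SNHG16 at 86.6 CPM per kilobase came next, and each neighbour in that order overlapped the next. TAF1D at 57.4, SNHG12 at 40.3 and SNHG3 at 29.99 CPM per kilobase were separate from the host above them. The lower tested hosts ran from SNHG7 at 27.6 to SNHG25 at 5.14 CPM per kilobase, and in 7 of those steps, with that from SNHG3 to SNHG7, the library ranges of neighbours overlapped.

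Over all libraries SNHG1, SNHG16, SNHG5 and GAS5 together gave 50.97% of the hosts' summed CPM. The other 3 hosts were too low to test. SNHG22 had 2 to 5 counts per library, and SNHG18 and SNHG24 had 0 counts in all 6, which allows up to 0.132 to 0.164 CPM per library at 3 counts. That limit covers counting error only and not how reads were assigned: EIF4A1, a translation factor in general use, is also listed at 0 in all 6 libraries. SNHG18 also carries the run of C and T opening at the start noted above.

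**Figure D1:**
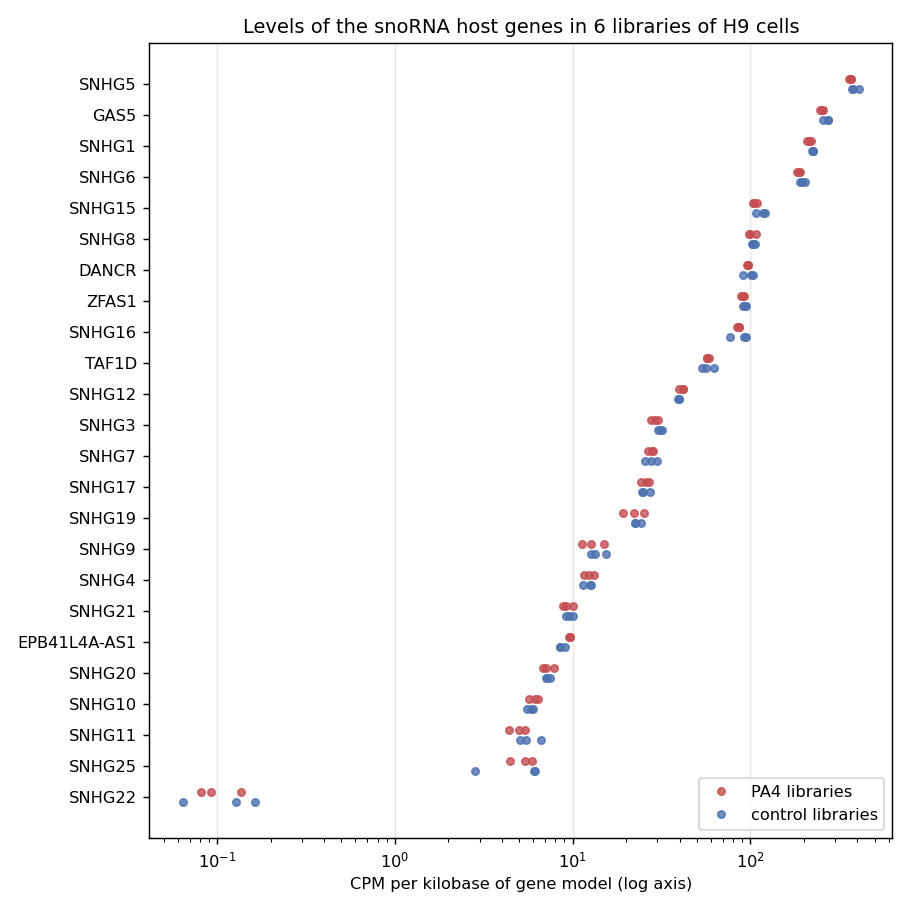
CPM per kilobase of gene model (log axis) of the 24 host genes with at least 1 count, 1 point per library, PA4 libraries above control libraries in each row. SNHG5 lies highest at 376 CPM per kilobase on average, and SNHG22 lies apart at the bottom. The points of both groups lie close together in most rows above it, with those of SNHG25 spread from 2.81 to 6.15 CPM per kilobase.

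No host gene passed the test between PA4 and control, where a gene counts as called at an adjusted p below 0.05. In edgeR's quasi-likelihood test 0 of 23 tested hosts were called, beside 0.231% of all 12107 tested genes (0.215% higher with PA4 and 0.0165% lower), and DESeq2 and limma-voom also called 0. At an unadjusted p under 0.05, 0 hosts were higher with PA4, against 2.69% of all genes. At the same p, 2 were lower (SNHG15 and GAS5), or 8.7% against 2.6% of all genes. The hosts' adjusted p-values in edgeR lay between 0.848 and 0.9987. The median log2 fold change of the hosts was -0.030, beside -0.0040 over all tested genes, with 16 negative and 7 positive values. Without control replicate 3, 0 hosts were called, beside 0.306% of all genes. In that fit 5 hosts were lower at that unadjusted p (SNHG3, SNHG5, SNHG11, SNHG15 and SNHG16), or 21.7% beside 4.94% of all genes, and the hosts' median was -0.052. Without control replicate 1, 3 hosts were lower (13.0%, beside 4.89% of all genes). The number was 1 (4.35%) without PA4 replicate 1 or PA4 replicate 3, beside 1.72% and 1.98% of all genes. It was 0 without PA4 replicate 2 or control replicate 2, beside 1.79% and 1.98% of all genes.

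The estimates were narrow for most hosts. In 22 of 23 (95.7%) the bounds of the 95% interval stayed inside a 1.5-fold difference either way, beside 87.1% of all tested genes. The exception was SNHG25, at 6 to 15 counts. Where the mean level reached 5 CPM, this held for 21 of 21 hosts and for 99.6% of tested genes. The median coefficient of variation within groups was 4.98% for the hosts and 5.80% for all tested genes. Where the mean level reached 5 CPM, it was 4.86% for the hosts and 4.84% for tested genes.

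**Figure D2:**
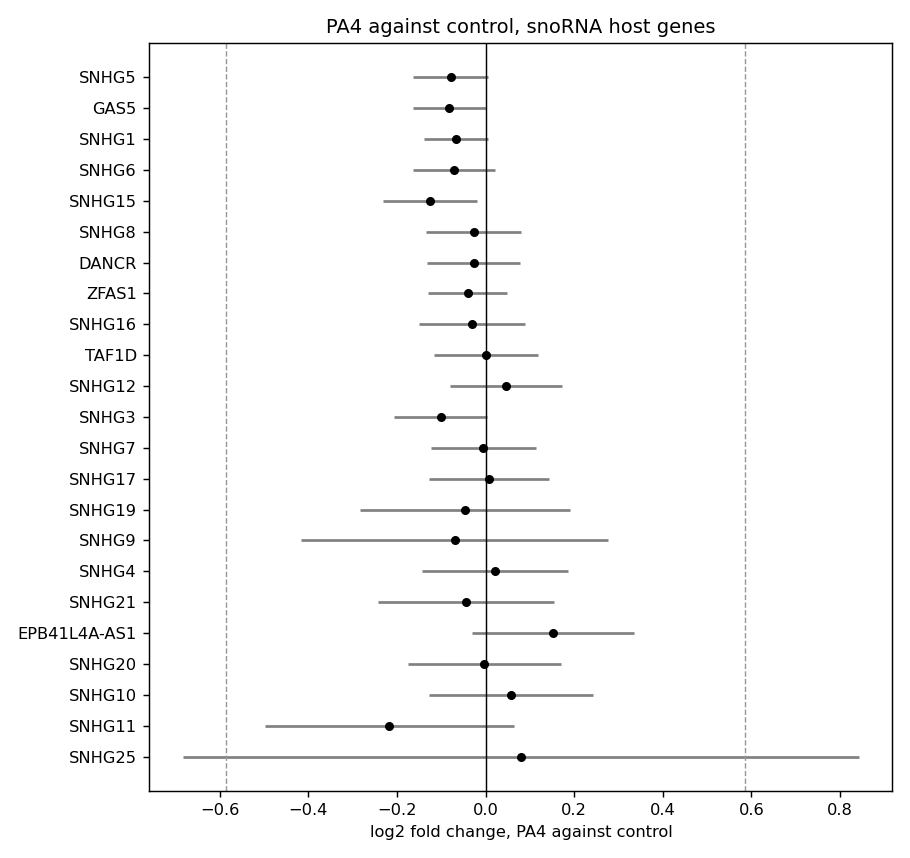
Log2 fold change, PA4 against control, of the 23 tested host genes (points) with 95% intervals (lines), ordered by level; dashed lines mark 1.5-fold either way. The points lie between -0.22 for SNHG11 and 0.15 for EPB41L4A-AS1, and all intervals except those of SNHG15 and GAS5 cross 0.

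The 4 hosts highest per kilobase all carry box C/D snoRNAs, and their PA4 libraries all lay below their control libraries. SNHG5 had 183, 186 and 187 CPM in PA4 replicates 1 to 3, against 190.1, 206 and 191 CPM in control replicates 1 to 3. GAS5, whose RefSeq span (chromosome 1, 173863901 to 173869045) holds 11 snoRNAs, had 161, 157 and 163 CPM with PA4, against 163, 172 and 172 CPM in control. SNHG1, with 8 C/D snoRNAs on chromosome 11 (62851978 to 62855885), had 244, 232 and 241 CPM with PA4, against 248, 251 and 251 CPM in control. In GAS5 the nearest libraries of the groups, PA4 replicate 3 and control replicate 1, differed by less than either group's own SD.

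SNHG6, which hosts SNORD87, had 90.2, 86.0 and 88.9 CPM with PA4, against 95.7, 92.3 and 90.2 CPM in control. Its nearest PA4 and control libraries both round to 90.2 CPM. Such a full separation with PA4 lower held for 4 of 23 tested hosts (17.4%), beside 5.31% of all tested genes. The log2 fold changes were -0.079 ± 0.040 (SE) for SNHG5, -0.082 ± 0.038 for GAS5, -0.067 ± 0.034 for SNHG1 and -0.071 ± 0.044 for SNHG6. Their edgeR adjusted p-values were 0.961, 0.943, 0.963 and 0.982, so none passed the test.

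**Figure D3:**
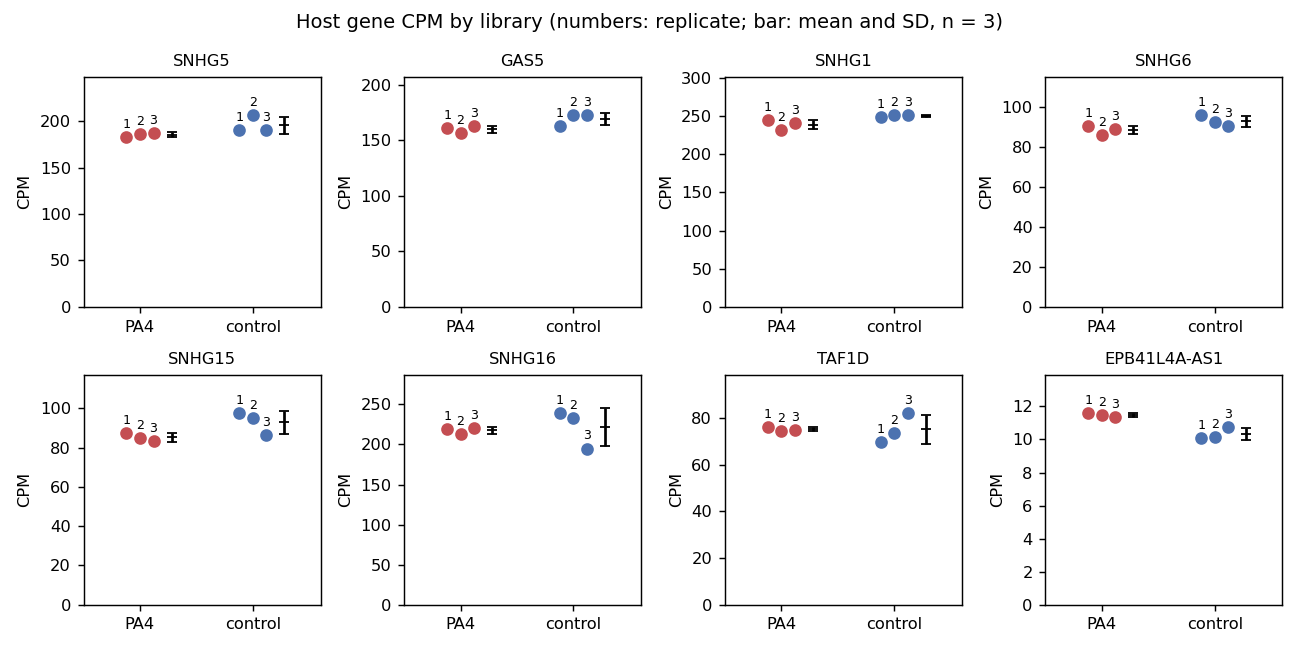
CPM of 8 host genes in each library, PA4 left and control right in each panel, with replicate numbers above the points and the mean and SD (n = 3) beside them; each axis starts at 0. The PA4 points lie below the control points for SNHG5, GAS5, SNHG1 and SNHG6 and above them for EPB41L4A-AS1, by small steps relative to the level, and control replicate 3 is the low control point of SNHG16.

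The other C/D hosts showed no separation of the groups. ZFAS1, antisense to the start of ZNFX1 and host of the SNORD12 genes, had 91.0, 92.9 and 94.7 CPM with PA4, against 95.8, 96.8 and 94.0 CPM in control. SNHG16, host of the SNORD1 genes, had 219, 213 and 220.6 CPM with PA4, against 239, 233 and 195 CPM in control. Control replicate 3 was the lowest and control replicate 1 the highest of its 6 libraries, and the SD was 4.08 CPM with PA4 and 23.8 CPM in control. SNHG16 was at -0.030 ± 0.056 log2 (SE), at -0.12 without control replicate 3 (edgeR adjusted p 0.271) and at 0.025 without control replicate 1 (edgeR adjusted p 0.907). SNHG19, host of SNORD60, had 7.92, 8.95 and 6.85 CPM with PA4, against 8.03, 8.01 and 8.61 CPM in control.

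The hosts whose snoRNAs are mainly of box H/ACA follow. SNHG15, host of SNORA9 and the host with the smallest p, had 87.5, 84.7 and 83.3 CPM with PA4, against 97.4, 95.04 and 86.3 CPM in control. Its groups overlapped at control replicate 3. Its log2 fold change was -0.13 ± 0.05 (SE), with an unadjusted p of 0.0233 and an edgeR adjusted p of 0.848. Without control replicate 3 it was at -0.18, with an edgeR adjusted p of 0.149 (0.0852 to 1 over the alternatives), so it was not called there either.

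SNHG3, host of SNORA73A and SNORA73B, had 68.1, 64.7 and 71.0 CPM with PA4, against 74.7, 72.7 and 71.0 CPM in control. SNHG8, host of SNORA24, had 61.2, 61.6 and 66.7 CPM with PA4, against 64.2, 63.2 and 65.6 CPM in control. DANCR, known for holding back differentiation of epidermal progenitors, had 82.9, 82.9 and 82.4 CPM with PA4, against 88.3, 86.4 and 78.2 CPM in control. In DANCR the PA4 libraries spread by 0.322 CPM (SD) and the control libraries by 5.34 CPM (SD), with the PA4 values inside the control range. The SD was larger in control for 12 of 23 tested hosts (52.2%), beside 66.8% of all tested genes.

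SNHG7, host of SNORA17A and SNORA17B, had 75.4, 74.9 and 70.8 CPM with PA4, against 79.8, 73.8 and 68.2 CPM in control. SNHG17, host of the SNORA71A to SNORA71D genes, had 35.1, 33.6 and 31.7 CPM with PA4, against 32.2, 35.4 and 32.3 CPM in control. SNHG11, its neighbour on chromosome 20 and host of SNORA71E and SNORA60, had 5.45, 5.83 and 4.77 CPM with PA4, against 7.25, 5.98 and 5.51 CPM in control. SNHG11 had the lowest estimate of all hosts, -0.22 ± 0.13 log2 (SE), with a 95% interval of -0.50 to 0.064 and an edgeR adjusted p of 0.978. Its groups overlapped, and it was at -0.095 without control replicate 1.

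SNHG12, with 1 C/D and 3 H/ACA snoRNAs, had 30.8, 30.7 and 29.3 CPM with PA4, against 29.5, 29.1 and 29.4 CPM in control. SNHG4, host of SNORA74A, had 19.1, 18.0 and 20.3 CPM with PA4, against 17.6, 19.5 and 19.4 CPM in control. EPB41L4A-AS1, host of SNORA13, was the 1 tested host whose PA4 libraries all lay above its control libraries (4.35% of tested hosts, beside 5.91% of all genes). It had 11.6, 11.5 and 11.3 CPM with PA4, against 10.1, 10.1 and 10.8 CPM in control. This came to 0.15 ± 0.09 log2 (SE), with an unadjusted p of 0.0984 and an edgeR adjusted p of 0.971.

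The 4 scaRNA hosts stood among the lower levels. SNHG20 had 14.8, 15.3 and 17.0 CPM with PA4, against 15.4, 15.5 and 16.3 CPM in control. SNHG10 had 12.5, 11.1 and 12 CPM with PA4, against 10.9, 11.5 and 11.8 CPM in control. SNHG21 had 9.61, 9.34 and 10.5 CPM with PA4, against 9.68, 10.0 and 10.6 CPM in control. The groups overlapped in all 3 of these hosts, and SNHG22, the fourth, was near 0.

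TAF1D is the 1 protein-coding host of the set. It encodes a subunit of SL1, the factor that brings RNA polymerase I to the ribosomal RNA genes, and its span holds 8 snoRNAs. It had 76.2, 74.4 and 75.0 CPM with PA4, against 69.7, 73.6 and 82.1 CPM in control, so all PA4 libraries lay inside the control range. Of 15 tested SL1 and polymerase I genes, 0 were called by edgeR and 0 had an unadjusted p below 0.05, with a median of 0.018 log2, and DESeq2 and limma-voom called 0 of them too. The 2 hosts left, SNHG9 and SNHG25, had 48 to 80 and 6 to 15 counts per library.

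Summed over all hosts, the level was 1580 ± 18.7 CPM with PA4 and 1637 ± 38.0 CPM in control (SD, n = 3 each), a ratio of 0.965 (0.953 without control replicate 3). The PA4 libraries summed to 1590.2, 1558 and 1591 CPM and the control libraries to 1651, 1665 and 1593 CPM. The groups did not overlap, and PA4 replicate 3 lay close to control replicate 3. No test was made of this sum. Cytosolic ribosomal protein genes summed to 55683 ± 268 CPM with PA4 and 55682 ± 1090.2 CPM in control (SD, n = 3 each). The run of C and T at the annotated start was found in 48 of 85 RPL and RPS genes and in 7 of 21 hosts.

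Control replicates 1 and 3 differed from each other along GC content, also among the hosts. Spearman's rho between transcript GC content and the log2 difference of these libraries was 0.439 over 23 hosts and 0.638 over 11438 tested genes. Both are descriptions, since genes of 1 pair of libraries are not independent. TAF1D, with the lowest GC content at 36.5%, was at -0.24 log2 in that difference, while SNHG7 and SNHG9, at 65.9% and 66.5%, were at 0.23 and 0.27. The largest difference was that of SNHG11, at 0.39 log2 with 55.5% GC. Several hosts lay off this order, among them SNHG16, at 0.29 log2 with 45.1% GC. SNHG19, SNHG12 and SNHG25, at 56.1%, 56.6% and 62.2% GC, were at -0.10, 0.0056 and -0.017 log2. The PA4 against control fold changes followed GC content with a rho of 0.117 over the hosts and -0.042 over all genes. With offsets for GC content 0 hosts were called, beside 0.809% of all genes. In that fit 5 hosts were lower at an unadjusted p under 0.05 (GAS5, SNHG1, SNHG3, SNHG5 and SNHG15), or 21.7% beside 4.84% of all genes, with edgeR adjusted p-values of 0.148 or more.

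**Figure D4:**
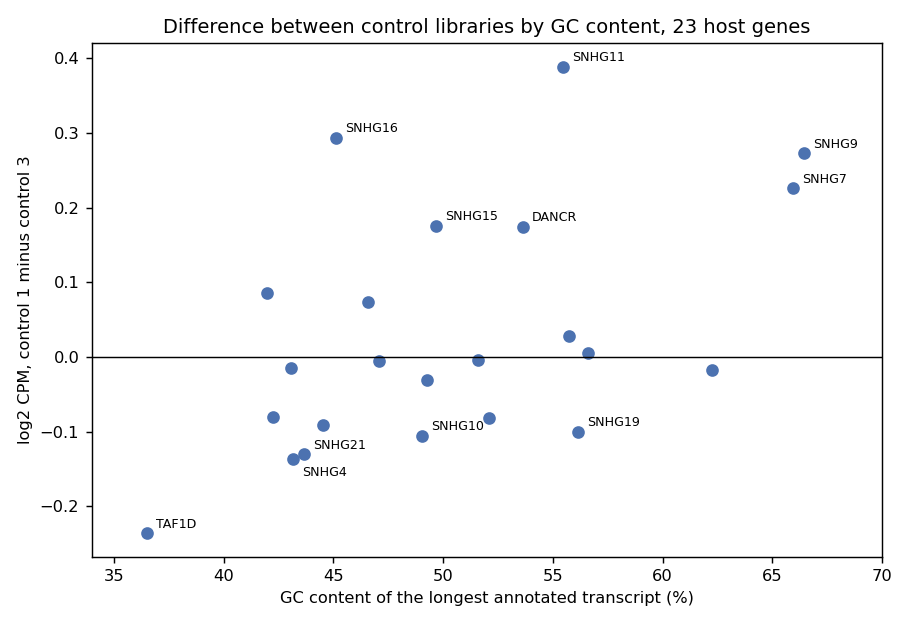
Log2 CPM of control replicate 1 minus control replicate 3 against the GC content (%) of the longest annotated transcript, 1 point for each of 23 host genes, with names where the difference is over 0.1. TAF1D lies lowest at -0.24 and 36.5% GC, and SNHG7 and SNHG9 lie above 0.2 at over 65% GC.

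The hosts' snoRNAs also have rows in the table. RefSeq places 64 snoRNAs inside the spans of 25 hosts, 33 of box C/D, 27 of box H/ACA and 4 scaRNAs, and 62 matched a row. These rows held 2746 to 3164 counts per library. Of the 64 snoRNAs, 50 were checked to lie on the host's strand. The others, which include all 11 in GAS5, were placed by span alone. Mature snoRNAs have no poly(A) tail, and whether the reads come from them or from unspliced host RNA was not tested. Of 45 rows tested, 0 were called by edgeR (0.231% of all genes), and DESeq2 and limma-voom also called 0. An unadjusted edgeR p below 0.05 was found for 1 row higher with PA4 (2.22%, beside 2.69% of all genes) and for 2 rows lower (4.44%, beside 2.6% of all genes). Their median log2 fold change was -0.023, and the summed level of all 62 rows was 146 ± 6.04 CPM with PA4 and 152 ± 9.09 CPM in control (SD, n = 3 each).

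Set against the host, each per kilobase, the snoRNA rows stood at similar ratios in both groups for the hosts with most such counts. For GAS5 the 10 rows held 756, 832 and 790 counts with PA4, against 740, 807 and 824 in control. Per kilobase that was 22.2% to 25.5% of the GAS5 level with PA4 and 22.5% to 23.99% in control. For SNHG1 the ratio was 26.5% to 29.02% with PA4 and 25.7% to 30.1% in control. For TAF1D it was 52.8% to 57.5% with PA4 and 53.0% to 60.5% in control. The ranges of the groups overlapped in all 3.

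Among the 16 hosts with 100 or more such counts in all, SNHG21 was the 1 whose groups did not overlap. Over all tested genes, the groups' CPM did not overlap in 11.2%. The scaRNA row of SNHG21, SCARNA15, had 15 to 26 counts per library. It stood at 64.1% to 70.1% of the host with PA4 and 70.9% to 112% in control. Below that cut SNHG4, at 2 to 5 such counts per library, did not overlap either (4.02% to 7.52% with PA4, 8.38% to 11.4% in control). Both cases were noticed after the values were seen and not tested. Among themselves the hosts ranged widely. SNHG5 was the lowest among hosts with 100 or more such counts, at 3.65% over all libraries, and SNHG12 stood at 62.2% and SNHG3 at 49.1%. In SNHG25 and SNHG22 the snoRNA row exceeded the host: SNORD104 had 45 to 72 counts and SCARNA17 had 37 to 64. The nested rows of SNHG10 and SNHG7 are listed at 0. The counted model of SNHG10 is 1961 bases, as long as its span, so its scaRNA lies inside the model. How reads inside a host's model were assigned is not known, so neither host's zeros show that the RNA is absent.

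**Figure D5:**
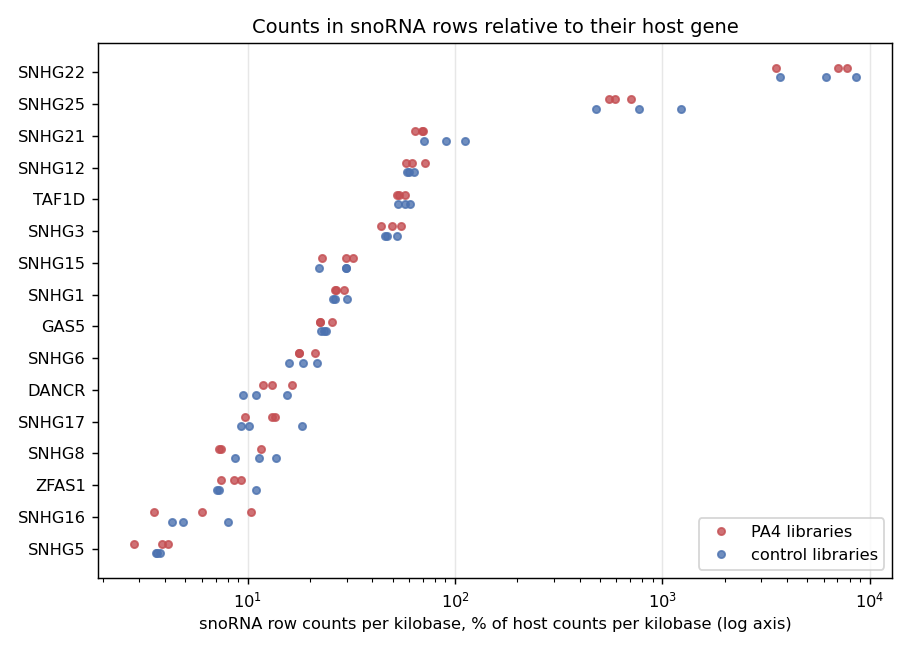
Counts per kilobase in snoRNA rows as a percent of the host gene's counts per kilobase (log axis), 1 point per library, PA4 above control, for the 16 hosts with 100 or more snoRNA row counts in all. The ratio runs from 3.65% for SNHG5 to over 100% for SNHG25 and SNHG22, and the ranges of both groups overlap in every row except SNHG21.

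Genes that make and remove these RNAs gave no called change either. The 8 core snoRNP proteins, among them the methylase FBL and the pseudouridine synthase DKC1, had 0 called and a median of 0.011 log2, and the 11 assembly factors had 0 called and a median of 0.0024. The 11 release and trimming factors had 0 called and a median of 0.019, and the 11 tested growth regulators of TOP messages had 0 called and a median of 0.018. DESeq2 and limma-voom called 0 in these lists as well, and 0 of these genes were at an unadjusted p under 0.05 in edgeR.

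Of 17 nonsense-mediated decay factors, 0 passed in edgeR, DESeq2 and limma-voom alike, and 15 had a positive log2 fold change, beside 5761 of 12107 tested genes, with a median of 0.045. Positive values also numbered 9 of 11 among release and trimming factors, 11 of 15 among SL1 and polymerase I genes, and 8 of 11 among growth regulators. They numbered 7 of 11 among assembly factors and 5 of 8 among core proteins. The groups did not overlap in 3 of 17 decay factors (17.6%), beside 11.2% of tested genes. This held for 2 of 11 assembly factors (18.2%), 1 of 8 core proteins (12.5%) and 0 genes of the release, growth regulator and polymerase I lists. The decay factors' summed level was 2616 to 2620 CPM in PA4 libraries and 2494 to 2558 CPM in control libraries. Sums of the core, assembly, growth regulator and polymerase I lists also lay higher in every PA4 library. Those of the release and trimming factors overlapped, and no sum was tested. SMG5, which helps to dephosphorylate UPF1, was the 1 decay factor at an unadjusted p under 0.05, at 0.098 ± 0.043 log2 (SE) with an edgeR adjusted p of 0.920.

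Hosts outside the name rule were counted as well. Of 35 tested protein-coding snoRNA hosts, such as NCL, with EIF4A1 left out at 0, 0 passed in edgeR and 0 in DESeq2 and limma-voom, 0 had an unadjusted edgeR p below 0.05, and the median was 0.0022 log2. A further list held 6 hosts, of which 3 were tested, with 0 called by edgeR and a median of -0.0066 log2. LRRC75A-AS1, since renamed SNHG29, had 583 ± 7.999 CPM with PA4 and 585 ± 12.6 CPM in control (SD, n = 3 each). C6orf48, since renamed SNHG32, had 63.1 ± 1.78 CPM with PA4 and 64.9 ± 3.28 CPM in control. CWF19L1 had 86.4 ± 0.981 CPM with PA4 and 83.7 ± 3.36 CPM in control. MEG8, SNURF and SNRPN had at most 1 count per library.

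Some hosts share exon bases with other genes of the table, so their counts can be mixed. EPB41L4A-AS1 shares 49.6% of its exon bases with EPB41L4A on the opposite strand, which had 1 to 8 counts. SNHG6 shares 29.3% with MCMDC2 and SNHG21 shares 34.1% with FSD2, each at 3 counts or fewer. SNHG10 shares 20.1% with GLRX5, which was abundant at 1765 to 2291 counts, and SNHG4 shares 14.0% with MATR3 on the same strand, at 10778 to 13226 counts. GLRX5 and MATR3 were not called (edgeR adjusted p 0.997 for both).

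Of genes that start within 1000 bases of a host on the opposite strand, 7 were found among the RefSeq sequences used, and none was called. SLC3A2, an amino acid transporter subunit whose start lies 224 bases from that of SNHG1, had 172 ± 7.10 CPM with PA4 and 164 ± 7.53 CPM in control (SD, n = 3 each), at 0.064 ± 0.043 log2 (SE) with an edgeR adjusted p of 0.988. C11orf54 beside TAF1D, GLRX5 beside SNHG10, TRAF7 beside SNHG19, ACAA2 beside SNHG22 and ZBTB37 beside GAS5 had log2 fold changes between -0.063 and 0.025. SEMA5A, beside SNHG18, had 0 counts, as did SNHG18. ZNFX1, at the start of ZFAS1 but without a sequence there, had means of 76.6 CPM with PA4 and 72.1 CPM in control (n = 3 each). It was at 0.086 ± 0.045 log2 (SE) with an edgeR adjusted p of 0.963. Its PA4 libraries lay above its control libraries, as did those of 5.91% of all tested genes.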

How the data were processed

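RNA with poly(A) tails was sequenced from H9 cells in 3 PA4 and 3 control libraries. The authors deposited 1 table of raw counts per gene with the length of each gene model. Per the submitters' processing notes, reads were handled with Trimmomatic 0.39, fastp 0.23.2, STAR 2.7.9a and featureCounts of Subread 1.6.4 on hg38. For annotation, strand setting and reads that overlap several features: not given in the sources used here.

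Members were the 26 rows that match the stated name rule. The members, gene lists and naming rule were chosen with earlier results of these data known. Values were named by library for members with a mean of 5 CPM or more or an unadjusted p under 0.05. List genes were named where called or at an unadjusted p under 0.05, up to 3 per list, and other names were added after their values were seen. Counts were fitted in R 4.3.3 with edgeR 4.0.16 (filterByExpr, TMM factors, glmQLFit, glmQLFTest, two-sided), with all 6 libraries and no covariate, with Benjamini-Hochberg adjustment of p over 12107 tested genes. Called means an adjusted p below 0.05. CPM were taken with edgeR's cpm on TMM-scaled library sizes. The SE of a log2 fold change comes from the F statistic, and intervals are 95%. The script was first tested on simulated data. Alternatives were DESeq2 1.42.0, limma-voom (limma 3.58.1), other scalings, no filter, a replicate block, GC offsets (GENCODE release 29 transcripts, 94.5% of tested genes) and leaving out each library. No 2 libraries were alike within sampling noise (chi-square over its degrees of freedom, 1.48 to 6.81). Spans and 5′ ends came from RefSeq GRCh38.p14, and strands and shared exons from GENCODE release 29. The labels name no separate cultures, so p-values measure the spread between these libraries only, which may be technical.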

Additional observations from a re-analysis of the deposited data

How the results depend on the processing

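Over 14 alternatives 0 host genes were called. The smallest adjusted p of any host was 0.0852, for SNHG15 with the replicate block and GC offsets together. Hosts lower at an unadjusted p under 0.05 numbered 0 to 6 (0% to 26.1%, beside 1.15% to 5.27% of all genes) and hosts higher 0. The replicate numbers share only a number (correlations of deviations 0.025, -0.0084 and 0.126), and with the replicate block 4 hosts were lower at an unadjusted p under 0.05 (17.4%, beside 3.51% of all genes). Direction turned for TAF1D with library size alone (-0.0046), SNHG20 without the filter (0.0011) and SNHG7 with GC offsets (0.022, also 0.022 with the block). Leaving out 1 library turned 21 estimates, with values of -0.050 to 0.070 for TAF1D, -0.059 to 0.038 for SNHG20, -0.027 to 0.054 for SNHG17, -0.204 to 0.251 for SNHG25, -0.19 to 0.019 for SNHG9, -0.15 to 0.043 for SNHG19, -0.026 to 0.065 for SNHG4, -0.059 to 0.054 for SNHG7, -0.12 to 0.025 for SNHG16 and -0.078 to 0.0077 for DANCR. The cause was not tested. The hosts' summed ratio stayed between 0.953 and 0.974. Over all genes, 28 were called (26 higher, 2 lower), against 62 without the filter (53 and 9), 59 with the block (50 and 9), 98 with GC offsets (81 and 17) and 112 with both (90 and 22). Leaving out 1 library gave 17 to 77, with 16 to 53 higher and 1 to 24 lower. Depth limits SNHG9, SNHG22 and SNHG25, at 80 counts or fewer per library.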

Other observations

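SNORA73A and SNORA73B, near-identical H/ACA snoRNAs inside SNHG3, had estimates of opposite sign. SNORA73A had 2.63 CPM with PA4 and 3.49 CPM in control, and SNORA73B had 2.62 CPM with PA4 and 2.01 CPM in control (means, n = 3 each). Their edgeR adjusted p-values were 0.879 and 0.943, and they were picked out with those values in view. Reads can be shared between such copies. Both rows together held 94, 114 and 111 counts in PA4 replicates 1 to 3, against 118, 100 and 99 in control replicates 1 to 3.

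SNORD81, in GAS5, had the smallest p of the nested rows, with 28, 34 and 23 counts with PA4, against 30, 54 and 46 in control. Scaled to library size, the PA4 libraries lay below the control libraries, at -0.70 ± 0.23 log2 (SE) with an edgeR adjusted p of 0.658. The row counted for SNORD81 is 43 bases long. The groups did not overlap in 3 of 45 tested nested rows (6.67%), beside 11.2% of all tested genes. Among these was also SNORD76, in GAS5, with PA4 lower. Tested rows inside GAS5 other than SNORD81 had edgeR adjusted p-values of 0.990 or more.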
